A study of Mus musculus with 39 samples.

Results

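The comparison set gastrocnemius muscle of mice that had carried a tumour for 21 days (week 3) against muscle of mice that had carried it for 7 days (week 1). All libraries labelled 21 days with a count file entered as week 3 (n = 7), and all those labelled 7 days as week 1 (n = 8), so that 15 of the 38 libraries with counts were compared. The labels list 39 samples, and week 3 replicate 2 was not analysed here. The mice were of the C57BL/6 strain and received Lewis lung carcinoma (LLC) cells, a mouse lung cancer line, in the hind flank at 8 weeks of age. Control mice received phosphate-buffered saline (PBS, n = 8). The other groups held weeks 2 (n = 7) and 4 (n = 8) of tumour, and the series text places visible wasting at week 4. Muscle was frozen, RNA was taken up in Trizol, and libraries were made with an Illumina TruSeq RNA kit. Week 3 therefore lies between the earliest time sampled and the time at which muscle was lost. Mice of week 3 were also older at collection than those of week 1, so age and time with the tumour cannot be told apart. The labels do not say whether animals shared a litter, cage or day. Each p-value therefore speaks only of the spread among the libraries fitted, which may be technical. For the edgeR test over all groups these are all 38 libraries with counts.

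Cancer cachexia is the loss of muscle and fat that accompanies some tumours. In muscle it is known for breakdown of sarcomere proteins by the ubiquitin-proteasome system, in which the ligases Fbxo32 (atrogin-1) and Trim63 (MuRF1) mark proteins for the proteasome. Tumours also act on the bone marrow and spleen, where they can drive the release of neutrophils and immature red cells into blood, and muscle taken without flushing holds blood. At the Z-disc, the anchor of the thin filaments, proteins such as Csrp3, Ankrd1 and Flnc take part in sensing stretch and load.

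Reads assigned to genes numbered 14395575 to 24801565 per library, with a median of 17310382 in week 1 and 18418902 in week 3. Defining transcripts of skeletal muscle were high in all 15 libraries. The fast myosin Myh4 lay between 18134 and 76613 CPM (counts in a gene, scaled to library size) and the creatine kinase Ckm between 4990.1 and 21444. Of 9384 genes with at least 5 CPM, week 3 replicate 1 was over 4 times the next highest library for 23 genes and under 0.25 times the next lowest for 50. The same counts were 9 and 1 in week 3 replicate 3, 7 and 4 in week 1 replicate 7, and at most 1 and 3 in any other library. Week 3 replicates 1 and 3 also had more reads in no gene, at 8.97% and 10.6%, against at most 5.55% elsewhere. Libraries were spread over sequencing lanes that differed between the weeks. Week 1 had 3 libraries in lane 2, 2 in lane 4 and 3 in lane 5, and week 3 had 1 in lane 2, 3 in lane 4 and 3 in lane 6. Of week 3, replicate 8 was in lane 2, replicates 5, 6 and 7 in lane 4, and replicates 1, 3 and 4 in lane 6.

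Week 3 muscle held more transcript of red cells, of neutrophils and of Z-disc and stretch-related muscle proteins than week 1 muscle, and the ligase Fbxo32 was also higher. Of 14689 genes tested, 147 rose and 8 fell, which together are 1.06% of the genes (edgeR quasi-likelihood test over all groups, Benjamini-Hochberg adjusted p under 0.05). An unadjusted p under 0.05 was reached by 1943 genes, and the median log2 fold change over all genes tested was 0.00. The rises were uneven between the 7 libraries. Over the 147 genes that rose, the median difference from the week 1 mean on the log2(CPM + 0.5) scale was 2.00 in week 3 replicate 1 and 1.76 in replicate 6. It was 1.24 in replicate 5 and 1.05 in replicate 7. The other libraries lay lower, with 0.42 in replicate 3, 0.26 in replicate 4 and 0.19 in replicate 8. For 142 of the 147 genes the SD of log2(CPM + 0.5) was larger in week 3 than in week 1, with median SDs of 0.95 and 0.29. Over all genes tested the median SDs were 0.32 and 0.25. The test takes 1 spread per gene from all 38 libraries, so it does not follow the wider spread of week 3. All 147 genes were selected by the same test, so the values only describe them.

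**Figure D1:**
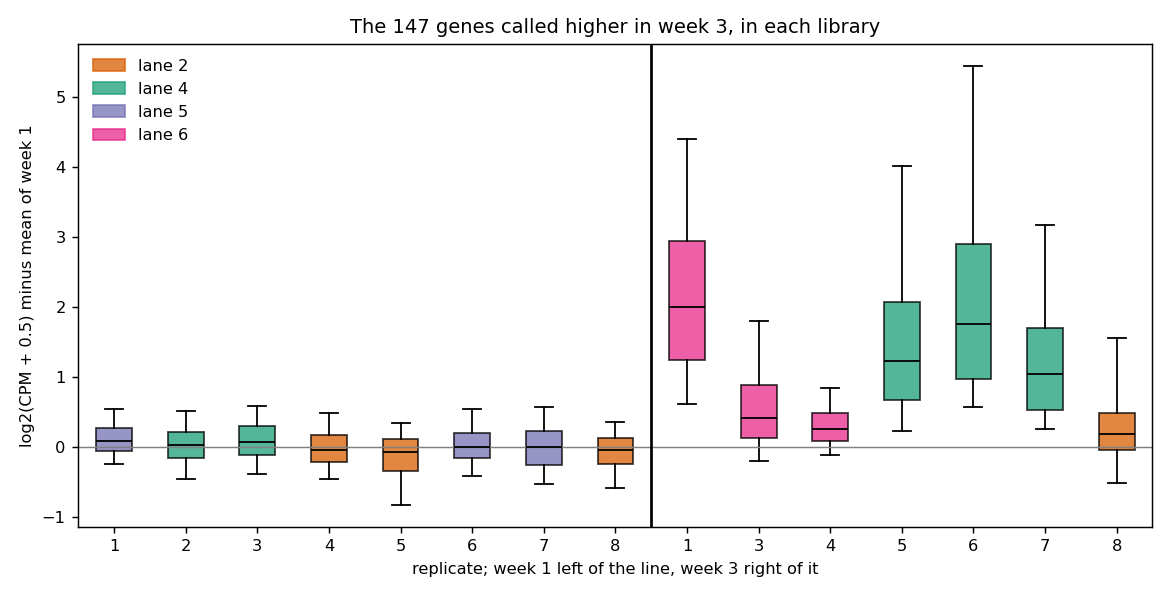
Difference of each library from the week 1 mean, in log2(CPM + 0.5), over the 147 genes that rose, for each of the 15 libraries (boxes are quartiles, whiskers run from the 5th to the 95th percentile, colours are sequencing lanes). The week 3 medians run from 0.19 in replicate 8 to 2.00 in replicate 1, and replicates 3, 4 and 8 lie near the week 1 libraries.

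Groups that did not overlap at all were rare. Among the genes called, 6 had every week 3 library above every week 1 library, and no gene that fell had the reverse. Over all genes tested, 11 (0.0749%) lay wholly above and 4 (0.0272%) wholly below. These 6 were chosen after their values were seen: Ankrd1, the chitinase-like protein gene Chil3, the interferon-induced Oas3 and Trim30b, the dehydrogenase gene Dhrs9 and the leukotriene receptor gene Cysltr1. Chil3 was at 0 to 0.227 CPM in week 1 and at 0.256 to 20.5 CPM in week 3. Apart from Ankrd1, and from Cysltr1 at 1.05 to 2.20 against 2.77 to 4.17 CPM, their week 1 levels were under 1 CPM. Of all 155 genes, 44 were called again with a term for lane 2, without the lane 2 libraries and in each of 15 fits that left out 1 library, and 43 of these rose.

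The number of genes called changed with the libraries entering the fit. A fit of the 15 libraries alone, with 13 residual degrees of freedom in place of 33, called 3 genes (0.022%), all higher: Csrp3, the myeloid gene Slfn4 and the musculoskeletal nuclear protein gene Mustn1 (the last named after its values were seen). Without week 3 replicate 1 the counts were 68 higher and 8 lower, and without replicate 6 they were 95 and 8. Without replicate 4 they were 275 and 23, and without replicate 8 they were 352 and 121. Leaving out week 1 replicate 7 left 3 lower genes, and leaving out week 3 replicate 3 gave 20. Leaving out lane 2 gave 84 higher and 18 lower genes (0.552% and 0.118% of those tested, together 0.67%). A lane 2 term gave 129 and 10 (0.878% and 0.0681%, together 0.946%), and a term for each lane 43 and 1. Lane 4 alone gave 1 gene (0.00703%), which was higher.

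**Figure D2:**
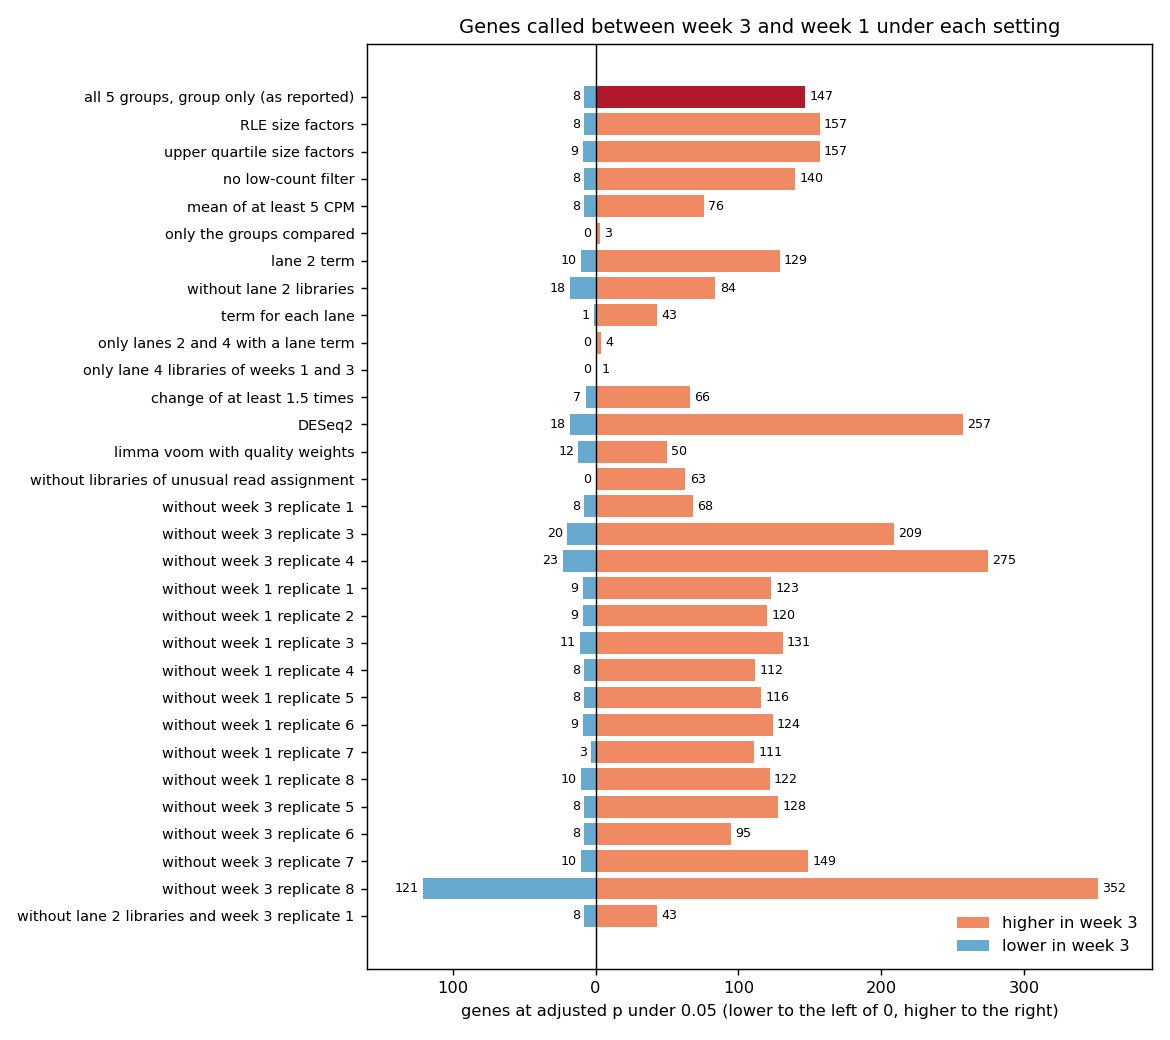
Number of genes called higher and lower in week 3 against week 1 under each setting, with the setting on one axis and the count of genes on the other. The bars start at 0, the fit used in the text gives 147 and 8, and the fit of the 15 libraries alone gives 3 and 0.

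An exact permutation test for each gene over the 6435 ways of splitting 15 libraries into 7 and 8 (two-sided, difference of mean log2(CPM + 0.5)) was also run. It gave a p under 0.05 for 1629 genes, and no gene passed after adjustment over all genes, where the smallest adjusted value was 0.163. The smallest p that these splits can give is 0.000155. In the authors' deposited table of week 3 against week 1, 116 genes were listed, 111 higher and 5 lower. Of these, 69 were among the 155 called here, which is 59.5% of the authors' list and 44.5% of the genes called, all with the same sign.

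The list of red cell transcripts held 25 genes of red cells and their precursors, of which 24 were in the files and 17 had enough reads to test. Of the 17, 12 rose and none fell, with a median log2 fold change of 3.34. Slc4a1 (chromosome 11, 102348824 to 102366203, minus strand, GRCm38), the anion exchanger of the red cell membrane, was at 0.0577, 0.698 and 2.01 CPM in week 1 (lowest, median and highest). In week 3 it was at 30.6, 1.55, 0.769, 47.5, 174, 11.6 and 1.12 CPM in replicates 1, 3, 4, 5, 6, 7 and 8. Replicates 1, 5, 6 and 7 were above all of week 1, and the other 3 lay within its range. The log2 fold change was 5.61 ± 0.85 (SE; edgeR adjusted p = 0.000422; exact permutation p = 0.00373). The PBS median was 0.813 CPM.

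Genes of haem and haemoglobin moved in the same libraries. Alas2 (chromosome X, 150547375 to 150570638, plus strand), the red cell enzyme for the first step of haem synthesis, was at 7.95, 16.2 and 24.5 CPM in week 1. Its week 3 levels were 137, 20.4, 22.8, 323, 835, 85.5 and 23.9 CPM in the same order of replicates. Again replicates 1, 5, 6 and 7 were above week 1 and the others were not. Alas2 rose by 3.62 ± 0.59 (edgeR adjusted p = 0.0006; exact permutation p = 0.00109), and the PBS median was 26.4 CPM. The adult beta globin gene Hbb-bs was at 68.0, 249.8 and 288 CPM in week 1 and at 182, 1023 and 7425 CPM in week 3, and its log2 fold change was 3.16 ± 0.55 (edgeR adjusted p = 0.00119). Hbb-bt, Hba-a1 and Hba-a2 rose by 3.74, 2.83 and 3.25 on the log2 scale. The members of each globin pair are near-identical copies, so the split of reads between them is uncertain.

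Of the other red cell genes, Epb42 (protein 4.2 of the membrane skeleton) and the erythroid genes Tspo2 and Trim10 rose by 4.28, 4.49 and 5.08 on the log2 scale. Their levels were low, with medians of 0.0550, 0.0929 and 0.209 CPM in week 1 and 0.421, 0.655 and 2.39 CPM in week 3. Ank1, Fech, Bpgm, Tal1 and Slc25a37 were not called, with log2 fold changes from −0.34 to 0.59. Several of those are also transcribed in muscle or other cells: Fech makes haem in every cell type and Ank1 has muscle isoforms. Outside the list, Apol11b of the apolipoprotein L family rose by 5.96 ± 0.86 (edgeR adjusted p = 0.000235). The poly(A) polymerase gene Tent5c rose from a median of 3.94 to 18.3 CPM, by 3.55 ± 0.56 (edgeR adjusted p = 0.0006). The exonuclease gene Isg20 rose by 3.13 ± 0.55 (edgeR adjusted p = 0.00119).

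Summed over the list, red cell transcripts came to 819 to 1177 CPM in week 1 and 941 to 1875 CPM in PBS muscle. Much of the week 1 sum came from genes that were not called. Their week 1 medians were 305 CPM for Ank1, 176 for Fech and 112.5 for Bpgm, so the sums do not measure red cells alone. In week 3 the sums were 2853, 1147, 1178, 7033, 16144, 2436 and 954 CPM in replicates 1, 3, 4, 5, 6, 7 and 8. In bulk muscle, more blood or precursor cells and more RNA in each cannot be told apart. Within lane 4, which both weeks share, Slc4a1 was at 0.0577 to 0.660 CPM in 2 week 1 libraries and at 11.6 to 174 CPM in 3 of week 3. Those 3 were replicates 5, 6 and 7, all among the high libraries. Lane 6 held the high replicate 1 and the low replicates 3 and 4. In lane 2 the single week 3 library, replicate 8, had 1.12 CPM against 0.227 to 1.24 CPM. The same 12 genes were called without week 3 replicate 1, without lane 2 and with a lane 2 term. Without week 3 replicate 6, the highest library, 10 were called and the list median was 2.40. A term for each lane gave 11 and limma voom 5. The test of the 15 libraries alone called none of them, with an adjusted p of 0.0574 for Slc4a1.

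The promoter window of Alas2 (RefSeq, GRCm38.p6, chrX:150547167-150547466, plus strand, 250 bases before to 50 after the start) is printed as an example from the red cell genes. Capitals mark the single match to AGATAA, the letters bound by GATA factors, read on the other strand.

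Alas2: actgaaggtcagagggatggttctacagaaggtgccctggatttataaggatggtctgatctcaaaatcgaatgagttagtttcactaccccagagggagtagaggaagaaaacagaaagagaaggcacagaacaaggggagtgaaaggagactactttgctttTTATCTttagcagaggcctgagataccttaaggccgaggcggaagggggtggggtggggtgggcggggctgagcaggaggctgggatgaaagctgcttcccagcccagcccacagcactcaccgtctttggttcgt

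Of all 32851 RefSeq windows of this length, 11.2% held AGATAA on either strand. The named genes with this match were Alas2, Hbb-bs, Isg20, S100a9 and Ankrd1, out of 15 genes with a window. The windows of Hbb-bt, Hba-a2 and Tent5c held none of the 4 motifs searched on both strands. Besides AGATAA, the STAT letters TTCNNNGAA were searched. The E-box CACGTG was another. The last was TTGCNNAA, the letters of C/EBP factors. A match describes these letters only.

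Neutrophil genes rose as a second group. Of 23 listed genes, 19 were tested, 11 rose and none fell, with a median log2 fold change of 3.31 and positive values for all 19. Ngp, Ltf, Padi4, Stfa2l1, Cd177 and Trem1 had a week 1 median of 0 CPM. They had little room to fall, so their signs say little. S100a8 (chromosome 3, 90668978 to 90670035, plus strand), a subunit of the neutrophil protein calprotectin, was at 0, 0.448 and 1.61 CPM in week 1. In week 3 it was at 50.03, 5.86, 0.872, 2.53, 38.4, 20.3 and 0.588 CPM in replicates 1, 3, 4, 5, 6, 7 and 8. Of these, only replicates 4 and 8 lay within the week 1 range. S100a8 rose by 4.90 ± 0.77 (edgeR adjusted p = 0.0006; exact permutation p = 0.00186), beside a PBS median of 0.949 CPM. Its partner S100a9 went from a median of 0.663 to 10.8 CPM, by 4.59 ± 0.73 (edgeR adjusted p = 0.0006).

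Genes of neutrophil granules and receptors moved with the calprotectin pair. The granule genes Ngp and Ltf (lactoferrin) rose by 3.68 and 3.48, and Lcn2 (lipocalin 2) by 3.32 ± 0.68 (edgeR adjusted p = 0.00519). Levels of Ngp and Ltf were near 0, with week 3 medians of 0.193 and 0.0644 CPM, so their values rest on few reads. The resistin-like Retnlg rose by 4.93 ± 0.80 (edgeR adjusted p = 0.0006), and Chil3 and Stfa2l1 by 5.14 and 4.01. Among receptors, Csf3r, which binds the neutrophil growth factor G-CSF, was at 0.151, 0.516 and 1.38 CPM in week 1 and at 0.718, 4.38 and 11.6 CPM in week 3. It rose by 3.10 ± 0.54 (edgeR adjusted p = 0.00112). The chemokine receptor Cxcr2 and the activating receptor Trem1 rose by 3.31 and 4.01. Trem1 and Stfa2l1 were also near 0, each with a week 3 median of 0.193 CPM. Slfn4 was at 0.2005 to 0.826 CPM in week 1 and 0.824 to 8.75 CPM in week 3, a rise of 3.00 ± 0.49 (edgeR adjusted p = 0.000651; exact permutation p = 0.000311). The cytokine gene Il1b rose from a median of 0.0769 to 1.00 CPM, by 3.75 ± 0.63 (edgeR adjusted p = 0.000774).

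Summed neutrophil transcripts were 14.8 to 35.4 CPM in week 1 and 23.3 to 85.5 CPM in PBS muscle. Anxa1, which was not called, had medians of 23.8 CPM in week 1 and 24.0 CPM in week 3 and made up most of the week 1 level. The week 3 sums were 152, 49.0, 31.9, 46.0, 206, 137 and 23.5 CPM in replicates 1, 3, 4, 5, 6, 7 and 8. Replicate 3 was thus above week 1 for neutrophil genes and not for red cell genes, whereas replicate 5 was far higher for red cell genes. In lane 4, S100a8 was at 0 to 0.866 CPM in week 1 and at 2.53 to 38.4 CPM in week 3 (replicates 5, 6 and 7). The number called was 9 without week 3 replicate 1, 7 without replicate 6, 7 without lane 2, 5 with a term for each lane, and none in the fit of the 15 libraries alone.

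The window of S100a9 (chr3:90695672-90695971, minus strand, GRCm38.p6) held both an AGATAA match and a TTGCNNAA match, shown in capitals. C/EBP factors, which bind the latter letters, act in myeloid cells.

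S100a9: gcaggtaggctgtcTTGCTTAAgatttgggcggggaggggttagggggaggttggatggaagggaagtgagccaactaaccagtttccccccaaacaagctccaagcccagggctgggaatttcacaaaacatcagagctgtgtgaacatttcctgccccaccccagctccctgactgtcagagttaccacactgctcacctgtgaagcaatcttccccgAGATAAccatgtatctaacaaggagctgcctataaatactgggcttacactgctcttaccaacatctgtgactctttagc

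TTGCNNAA was in 10.8% of all windows. Among the named genes it was in those of S100a9, Retnlg, Hbb-bs and Csrp3, and the windows of S100a8 and Slfn4 held none of the 4 motifs.

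Other blood and immune cell types gave smaller values. Of 6 platelet genes tested, 2 rose: Ppbp, a platelet chemokine, by 2.75 ± 0.56 (edgeR adjusted p = 0.00551) and Itga2b, a platelet integrin, by 1.72 ± 0.33 (edgeR adjusted p = 0.00333). The list median was 1.35. Of 20 macrophage genes tested 1 rose, the myeloid transcription factor gene Spi1 by 1.39 ± 0.35 (edgeR adjusted p = 0.0336), and it passed in 6 of 15 leave-one-out fits. All 20 macrophage values were positive, with a median of 0.47, and the summed level was 105.5 to 182 CPM in week 1 and 176 to 257 CPM in week 3. PBS muscle ranged from 116 to 1293 CPM for the same sum, with a median of 167 CPM. Week 3 thus lay inside the control range, with every library above the control median. The macrophage gene Cd68 had a log2 fold change of 2.27 ± 0.60 and missed the threshold (edgeR adjusted p = 0.052). Only 4 of 18 lymphocyte genes had enough reads to test, with a median of 0.28. None of the 4 was called by edgeR, DESeq2 or limma voom. An unadjusted edgeR p under 0.05 was reached by 1 of them, beside 1943 of all 14689 genes tested.

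Receptors and adhesion genes for blood cells, chosen after their values were seen, added to these. Selp (P-selectin, an adhesion receptor of activated endothelium and platelets) was at 0.848, 1.21 and 1.77 CPM in week 1 and at 1.49, 3.38 and 5.79 CPM in week 3. It rose by 1.48 ± 0.26 (edgeR adjusted p = 0.00119). The cytokine receptor chains Csf2rb and Csf2rb2, which are similar enough to share reads, rose by 1.49 ± 0.35 and 1.41 ± 0.30 (edgeR adjusted p = 0.018 and 0.00647). Jak3, a kinase of cytokine receptors, rose by 0.70 ± 0.14 (edgeR adjusted p = 0.00508), from 5.31 to 9.85 CPM in week 1 to 9.0 to 17.0 CPM in week 3.

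Among genes of the muscle fibre itself, the Z-disc and stretch list held the most calls. Of 18 genes tested 6 rose and none fell, with a list median of 0.35. Csrp3 (chromosome 7, 48830398 to 48848033, minus strand), the muscle LIM protein of the Z-disc, was at 10.8, 19.9 and 34.6 CPM in week 1. In week 3 it was at 163, 80.8, 29.1, 92.4, 98.2, 98.2 and 56.7 CPM in replicates 1, 3, 4, 5, 6, 7 and 8. All but replicate 4 were above every week 1 library. The log2 fold change was 2.04 ± 0.36, a 4.11-fold higher level (edgeR adjusted p = 0.00119; exact permutation p = 0.000311). Csrp3 passed in all 15 leave-one-out fits, and its value without week 3 replicate 1 was 1.82 (edgeR adjusted p = 0.00461).

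Csrp3 in week 3 was near control muscle. In PBS libraries Csrp3 was at 20.4, 74.3 and 115 CPM, beside a week 3 median of 92.4 CPM. Against PBS, week 1 was lower by a log2 fold change of −1.75 (edgeR adjusted p = 0.0211), 1 of 9 genes (0.0613%) called between week 1 and PBS. Week 3 against PBS gave 0.28 (edgeR adjusted p = 0.786). These contrasts share the week 1 and week 3 libraries with the main one and are given side by side only. The median was 41.3 CPM in week 2 and 89.8 CPM in week 4.

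Ankrd1 (chromosome 19, 36111961 to 36120099, minus strand), a stress-induced ankyrin repeat protein of muscle, was at 4.79, 7.49 and 14.97 CPM in week 1. Week 3 levels were 919, 19.3, 16.0, 146, 32.4, 55.9 and 88.8 CPM, so that all 7 libraries were above all of week 1 and replicate 1 was far above the rest. Ankrd1 rose by 4.28 ± 0.87 (log2, edgeR adjusted p = 0.00508; exact permutation p = 0.000155). Without replicate 1 it was 2.66 and missed the threshold (edgeR adjusted p = 0.0988). The PBS median was 20.3 CPM, with log2 fold changes against PBS of −1.53 in week 1 and 2.74 in week 3. Neither was called, and the week 3 value includes replicate 1.

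The remaining Z-disc calls had the same dependence. Ankrd2, a relative of Ankrd1, rose from a median of 51.4 to 111 CPM, by 1.30 ± 0.27 (edgeR adjusted p = 0.00551; 0.98 and 0.0502 without week 3 replicate 1). Flnc, filamin C, which links actin to the Z-disc, rose from a median of 538 to 1049 CPM, by 1.31 ± 0.28 (edgeR adjusted p = 0.00882; 0.95 and 0.0918 without it). The actin-binding Xirp1 and the PDZ-LIM protein gene Pdlim3 rose by 1.47 and 1.06 (edgeR adjusted p = 0.00907 and 0.018). Without replicate 1, Csrp3 was the 1 gene of the list still called. In lane 4, Flnc was at 486 to 567 CPM in week 1 and at 847 to 1321 CPM in week 3, and Csrp3 at 16.0 to 34.6 against 92.4 to 98.2 CPM. The week 3 libraries of lane 4 were replicates 5, 6 and 7. Replicate 4, which lay within the week 1 range for Csrp3, was in lane 6. Mustn1 rose by 2.10 ± 0.50 (edgeR adjusted p = 0.0207), from 26.9 to 79.5 CPM in week 1 to 69.6 to 409.7 CPM in week 3.

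The Csrp3 window nearest the annotated start (chr7:48848002-48848301, minus strand, GRCm38.p6) is printed since Csrp3 was 1 of the 3 genes called in the 15 libraries alone. Its capitals mark the TTGCNNAA matches, both read on the other strand, and it held none of the other 3 motifs.

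Csrp3: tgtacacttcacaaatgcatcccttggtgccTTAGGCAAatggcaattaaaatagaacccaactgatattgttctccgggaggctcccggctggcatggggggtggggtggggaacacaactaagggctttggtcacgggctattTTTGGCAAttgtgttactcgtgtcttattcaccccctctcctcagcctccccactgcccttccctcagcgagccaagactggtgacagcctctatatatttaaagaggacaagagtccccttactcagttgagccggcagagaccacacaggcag

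Of 24 heat shock and chaperone genes tested 3 rose and none fell (list median 0.25). All 3, Hspb1, Hspb7 and Cryab, encode small heat shock proteins, which are known to bind Z-disc and filament proteins. Hspb1 was at 20.8, 41.5 and 79.2 CPM in week 1 and at 59.5, 120.0 and 309.8 CPM in week 3, a rise of 1.61 ± 0.36 (edgeR adjusted p = 0.0123). Hspb7 rose from a median of 226 to 665 CPM, by 1.46 ± 0.32 (edgeR adjusted p = 0.0105). Cryab, alphaB-crystallin, rose by 0.85 ± 0.22 (edgeR adjusted p = 0.0399) and passed in 5 of 15 leave-one-out fits. The PBS medians were 88.3 CPM for Hspb1, 412 for Hspb7 and 653 for Cryab, between the medians of both weeks. None of the 3 was called without week 3 replicate 1, where Hspb1 and Hspb7 had values of 1.28 and 1.19 (edgeR adjusted p = 0.0945 and 0.0822).

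**Figure D3:**
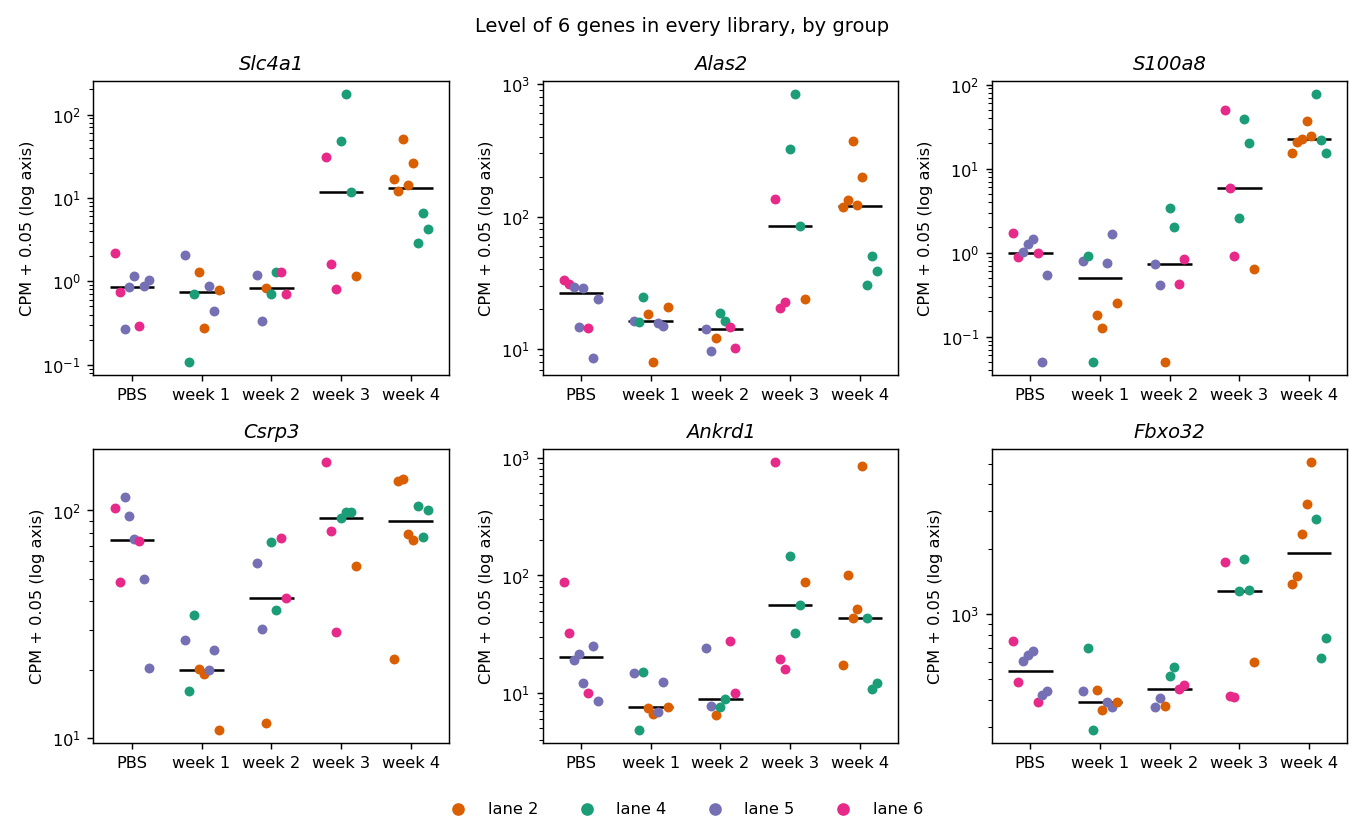
Levels of Slc4a1, Alas2, S100a8, Csrp3, Ankrd1 and Fbxo32 in each library of PBS and weeks 1 to 4, as CPM + 0.05 on a log axis, with a black line at each group's median and colours for the sequencing lane. Week 3 spreads widely for the blood cell genes, with Slc4a1 from 0.769 to 174 CPM, whereas Csrp3 is lowest in week 1.

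The atrophy ligases did not move as a group. Of 16 ubiquitin ligase genes tested 1 rose, and the list median was 0.08. Fbxo32 (chromosome 15, 58175879 to 58214932, minus strand) was at 291, 393 and 701 CPM in week 1. In week 3 it was at 1741, 416, 413, 1277, 1804, 1299 and 602 CPM in replicates 1, 3, 4, 5, 6, 7 and 8. Replicates 1, 5, 6 and 7 were above all of week 1 and the other 3 within its range, the same division as for Slc4a1 and Alas2. The log2 fold change was 1.35 ± 0.32, or 2.54-fold (edgeR adjusted p = 0.0228; exact permutation p = 0.0101). It passed in 9 of 15 leave-one-out fits, and not without week 3 replicate 1 (1.19, edgeR adjusted p = 0.106). Without lane 2 the value was 1.39 (edgeR adjusted p = 0.0706). The PBS median was 549 CPM and the week 4 median 1926 CPM.

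Trim63 was at 228, 322 and 489 CPM in week 1 and at 304, 458 and 1372 CPM in week 3, with a log2 fold change of 0.86 ± 0.42 (edgeR adjusted p = 0.368). Foxo1, a transcription factor that drives both ligases, had −0.10 ± 0.31 (edgeR adjusted p = 0.926). The cell cycle inhibitor Cdkn1a had 0.90 ± 0.42 (0.355), and the growth inhibitor Mstn, myostatin, 0.00 ± 0.17 (0.995), both as edgeR adjusted p. None of 21 FoxO and glucocorticoid target genes was called by edgeR or limma voom, while DESeq2 called 3 higher. The list median was 0.29, and an unadjusted edgeR p under 0.05 was reached by 5 with positive and 1 with negative values. Over all 14689 genes tested, 1943 reached it. Among 31 proteasome genes 2 rose, the regulatory subunits Psmd2 (0.79 ± 0.21) and Psmd8 (0.69 ± 0.18), with edgeR adjusted p of 0.0476 and 0.0433. All 31 proteasome values were positive, with a median of 0.46, which was 0.26 with none called when week 3 replicate 1 was left out. With a lane 2 term (median 0.36) or without week 3 replicate 6 (0.47) none was called either. Limma voom called none and DESeq2 called 4 higher.

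Cytokine and stress signalling genes gave single calls rather than whole lists. Of 13 NF-kB and TNF genes tested 3 rose (median 0.68), and 1 was called without week 3 replicate 1. The TWEAK receptor gene Tnfrsf12a was at 2.27, 6.33 and 7.69 CPM in week 1 and at 5.84, 17.0 and 83.5 CPM in week 3, a rise of 2.31 ± 0.47 (edgeR adjusted p = 0.00553). Icam1, an adhesion receptor, rose by 0.68 ± 0.18 (edgeR adjusted p = 0.0436) and passed in 3 of 15 leave-one-out fits. Of 17 genes of interleukin 6 signalling and the acute phase 2 rose, with a median of 0.50: Osmr and Lcn2, the latter already given among the neutrophil genes. The receptor gene Osmr was at 9.34 to 19.7 CPM in week 1 and 16.3 to 34.5 CPM in week 3, a rise of 0.77 ± 0.18 (edgeR adjusted p = 0.0142). Without week 3 replicate 1 or without replicate 6 Osmr missed the threshold (edgeR adjusted p = 0.0573 and 0.0659). Stat3 and its target Socs3 were not called, at 0.37 ± 0.17 and 0.70 ± 0.52 (edgeR adjusted p = 0.333 and 0.592).

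Of 27 interferon-response genes tested 2 rose and the median was 0.03. Isg15, a ubiquitin-like modifier, was at 0.682, 1.63 and 2.60 CPM in week 1 and at 1.54, 7.05 and 19.5 CPM in week 3, and rose by 2.31 ± 0.41 (edgeR adjusted p = 0.00119). Rsad2, viperin, rose from a median of 8.68 to 24.2 CPM, by 2.16 ± 0.40 (edgeR adjusted p = 0.002). Atf3, a stress-induced transcription factor, was the 1 of 16 immediate early genes called, at 2.90 ± 0.58 (edgeR adjusted p = 0.00461). Eda2r, a TNF receptor family member and p53 target, was the 1 of 14 p53 genes called. It went from a median of 39.8 to 119 CPM, by 2.00 ± 0.39 (edgeR adjusted p = 0.00375), and its value without week 3 replicate 1 was 1.31 (edgeR adjusted p = 0.0527). Gpx3, a secreted glutathione peroxidase, was the 1 of 19 antioxidant genes called, at 0.82 ± 0.21 (edgeR adjusted p = 0.0348). It passed in 6 of 15 leave-one-out fits, and not with a lane 2 term (0.72, edgeR adjusted p = 0.0922), without week 3 replicate 1 (0.77, 0.115) or without replicate 6 (0.53, 0.205).

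**Figure D4:**
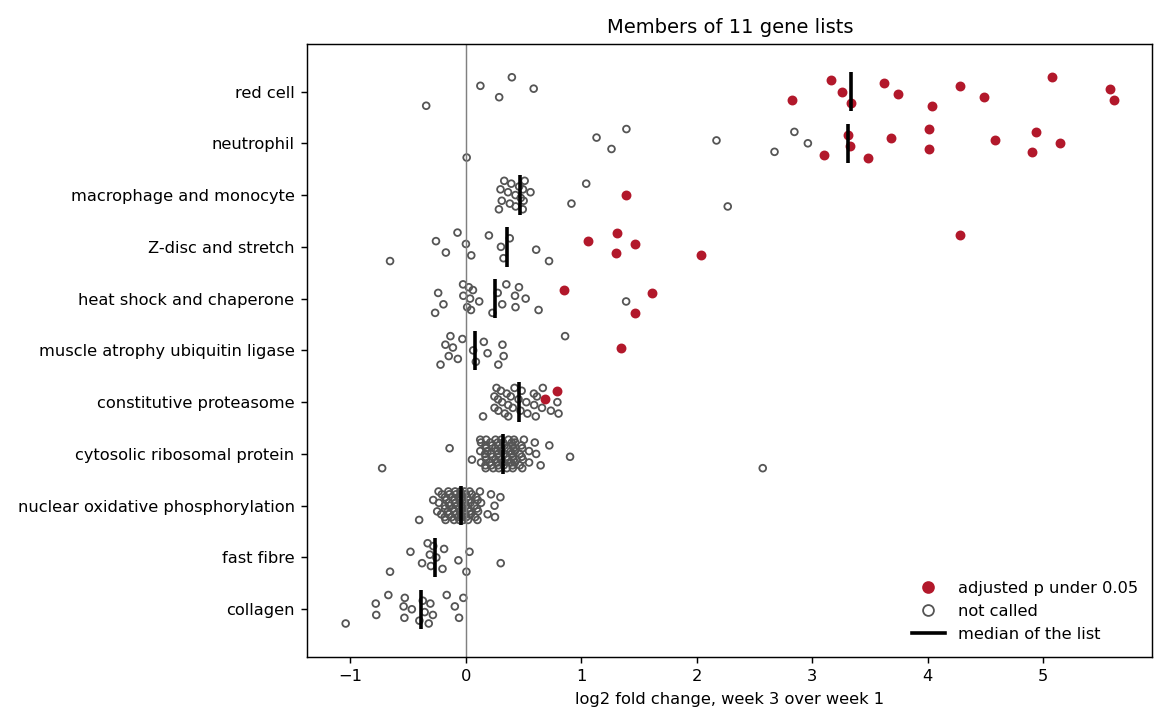
Log2 fold change, week 3 against week 1, of each tested member of 11 gene lists (red dots were called, black bars are list medians, the vertical scatter carries no value). Red cell and neutrophil members extend above 3, with medians of 3.34 and 3.31, and no other list shown has a median above 2.

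Of the 46 lists, 30 had no called member among their 608 members tested by edgeR. In these 30 an unadjusted p under 0.05 was reached by 62 members with positive and 28 with negative values. Over all 14689 genes tested, 1943 reached it in either direction, so such p-values were common outside the lists too. DESeq2 called 12 higher and 0 lower, and limma voom called none. They include the core metabolic programmes of muscle. The 76 genes of oxidative phosphorylation had a median of −0.04, 23 of glycolysis −0.22, 20 of the citrate cycle −0.09 and 27 of fatty acid use 0.00. The 14 fast fibre genes had a median of −0.27, and Myh4 itself −0.33 ± 0.20 (edgeR adjusted p = 0.5). The slow fibre list had Csrp3, which it shares with the Z-disc list, as its 1 call, and the slow myosin Myh7 had 0.02 ± 0.32 (edgeR adjusted p = 0.988). The mitochondrial coactivator gene Ppargc1a had −0.11 ± 0.14 (edgeR adjusted p = 0.784).

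Several uncalled lists leaned one way. All 18 collagen genes had negative values, with a median of −0.39, and 11 tendon genes had a median of −0.86. Both lists were uneven between libraries. As mean log2(CPM + 0.5) minus the week 1 mean, collagen was −1.36 in week 3 replicates 1 and 6. It was 0.49 in replicate 8 and −0.70 to −0.12 in the others. For tendon genes, week 3 ran from −1.69 in replicate 1 to 0.22 in replicate 8. Week 1 replicates 1 and 3 stood at 0.96 and 0.99 for tendon. Of 78 ribosomal protein genes 76 had positive values, with a median of 0.32, which was 0.09 once lane 2 was a term in the fit. The oxidative phosphorylation median was −0.25 in that fit. Endothelial (16 genes), pericyte (11) and satellite cell (14) lists had medians of 0.10, −0.04 and −0.03.

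**Figure D5:**
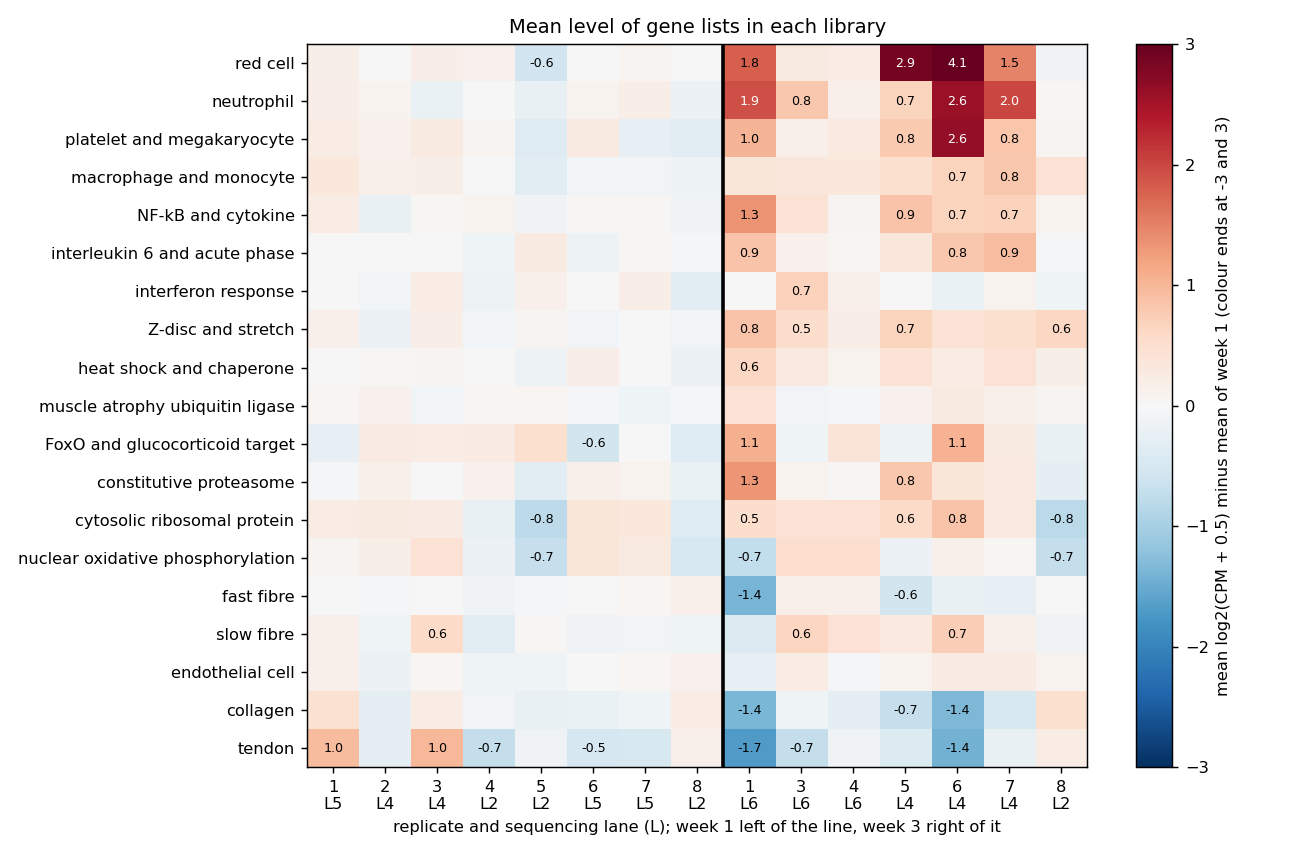
Mean log2(CPM + 0.5) of 19 gene lists in each of the 15 libraries, minus the week 1 mean (colour ends at ±3, numbers printed where the size is at least 0.5). Red cell means reach 4.06 in week 3 replicate 6 and 2.88 in replicate 5, and neutrophil means 2.59 in replicate 6 and 2.01 in replicate 7.

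Some calls came from 1 library. The keratin gene Krt80 was at 0, 1.24 and 1.67 CPM in week 1 and at 0.322, 2.12 and 199 CPM in week 3, where 199 was replicate 1. Its log2 fold change was 4.75 ± 0.94 (edgeR adjusted p = 0.0041), and without replicate 1 it was 0.63 (edgeR adjusted p = 0.871). The exact permutation p was 0.115. It was the 1 keratinocyte gene called of 5 tested out of 20 listed, and Krt27, Krt71 and Flg were at 0. The summed level of the 20 genes was 12.5 to 18.9 CPM in 7 of the week 1 libraries and 90.7 CPM in replicate 6, beside 15.03 to 25.5 CPM in PBS muscle. In week 3 it was 251 CPM in replicate 1, of which Krt80 was 199, and 13.3 to 32.6 CPM in the others. The part of skin transcripts in these calls was not tested. Gpnmb, a lysosomal glycoprotein of macrophages, was at 1.96 to 5.12 CPM in week 1 and at 1.93 to 291 CPM in week 3, again with replicate 1 highest. It gave 3.82 ± 0.88 (edgeR adjusted p = 0.0169), and 0.45 without replicate 1 (edgeR adjusted p = 0.926). Among predicted microRNA genes named after their values were seen, Gm23935 reached 4923 CPM in week 3 replicate 3 and 1130 CPM in replicate 1. Gm24245 was at 0 in all week 1 libraries and at 71.5 CPM in week 3 replicate 3.

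The 8 genes that fell are 0.0545% of those tested. Of these, 7 are unprocessed pseudogenes in 1 block of chromosome 1, at 24611535 to 24616197 on the minus strand (GENCODE M21, GRCm38): Gm28439, Gm10925, Gm28437, Gm28438, Gm10222, Gm28661 and Gm29216. RefSeq gives a mitochondrial name, mt-Atp6, as a synonym of Gm10925. In week 1 replicate 7 they were at 2420.2 to 15697 CPM, and no other library of either week exceeded 34.8 CPM for any of them. Their log2 fold changes, −6.97 to −6.33, thus rest on 1 library.

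Hmgcs1 (chromosome 13, 119690379 to 119708260, plus strand), an enzyme early in cholesterol synthesis, was the other gene that fell. It was at 38.3, 40.8 and 49.1 CPM in week 1 and at 25.6, 33.5 and 39.6 CPM in week 3, beside a PBS median of 38.5 CPM. The groups overlapped only slightly. The log2 fold change was −0.40 ± 0.09 (edgeR adjusted p = 0.0089; exact permutation p = 0.000311), and it passed in all 15 leave-one-out fits. It did not pass in the 15 libraries alone (edgeR adjusted p = 0.176), with a term for each lane (0.0618) or without week 3 replicates 1 and 3 and week 1 replicate 7 together.

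Set beside PBS muscle, the lists differed in where week 1 stood. For red cell genes the median log2 fold change was −0.19 in week 1 against PBS and 2.95 in week 3 against PBS. For neutrophil genes the same medians were −0.76 and 2.76, and for macrophage genes −1.13 and −0.53. For Z-disc genes they were −0.08 and 0.25, and for heat shock genes −0.26 and −0.03. Summed neutrophil levels had a median of 29.9 CPM in week 1 and 30.2 CPM in PBS muscle, where the highest was 85.5 CPM. Most of the week 1 sum was Anxa1, with a week 1 median of 23.8 CPM, so these sums say little of the other neutrophil genes. Summed macrophage levels had medians of 148 CPM in week 1, 210 in week 3 and 167 in PBS, where the highest was 1293 CPM. Macrophage genes in week 3 were thus below PBS by the list median and above it by the median sum. Against PBS, 9 genes (0.0613%) were called in week 1 and 51 (0.347%) in week 3. All of these share libraries with the contrast of both weeks. PBS libraries were in lanes 5 and 6, so that no lane held all 3 groups. In week 4 the median CPM was 13.2 for Slc4a1, 121 for Alas2, 22.2 for S100a8 and 43.4 for Ankrd1, each above the week 1 median.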

How the data were processed

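RNA-seq of whole gastrocnemius muscle was available as read counts per gene for 38 libraries. The authors deposited raw counts, and per the submitters' processing notes reads went through FastQC, HISAT2, HTSeq and DESeq2 on GRCm38.p5. Versions and the strand setting are not given in the sources used here, so reads of overlapping or antisense genes cannot be separated. The lines of reads in no gene, ambiguous or multiply aligned were left out of tests and library sizes. The authors' deposited table of week 3 against week 1 gives log2 fold changes and p-values, and is used only where named. Of 46078 gene IDs, 45143 were named from GENCODE M21.

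All 38 libraries were fitted by group in edgeR 4.0.16 (R 4.3.3, TMM scaling, filterByExpr with a minimum count of 10, quasi-likelihood F test, residual degrees of freedom 33), and week 3 was set against week 1. Adjusted p-values (Benjamini-Hochberg) run over all 14689 genes with a threshold of 0.05. CPM values use TMM-scaled library sizes. Alternatives were DESeq2 1.42.0, limma 3.58.1 (voom), other scalings and filters, lane terms and leaving out libraries. The script was tested on simulated data with known changes. Replicates were compared within groups, and no pair agreed within sampling noise (lowest chi-square per degree of freedom 14.1). No interval or floor is given per library, and SE and SD cover the spread between libraries only.

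Named genes were, among called genes with a mean of at least 5 CPM over the 15 libraries, the 15 largest rises and the 15 largest falls, without predicted-gene names. Added were up to 10 genes of smallest p called in every lane 2 and leave-one-out fit, up to 4 members of each list, and a set of atrophy, fibre and blood genes. Others are said to be chosen after their values were seen. The comparison, the gene lists and the named set were chosen with earlier results of these data known. Some genes of the lists are counted but their own values are not reported here.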

Additional observations from a re-analysis of the deposited data

Results flagged for a closer look

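Of 166 groups of 7 or 8 libraries tested, 25 had a highest or lowest library whose gap to the next was past Dixon's 95% limit. Chance flags about 1 in 20 groups. The values below are CPM for genes and mean log2(CPM + 0.5) for lists.

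Week 3 replicate 1 stood apart most often. It was highest for Krt80 (199), Gpnmb (291) and the keratinocyte list (3.67). The denervation (4.29), immediate early (3.74) and endoplasmic reticulum stress (4.73) lists were also highest in replicate 1. It was lowest for Myh7 (81.5), Gm29216 (7.33) and the pericyte (5.17), polyamine (4.57) and glycolysis (8.24) lists. In week 3, the platelet list was highest in replicate 6 (3.18) and the interferon list in replicate 3 (3.35). Replicate 8 was lowest for ribosomal protein (5.40) and antioxidant (5.54) genes.

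In week 1, replicate 5 was lowest for Hbb-bt (11.1), Hbb-bs (68.0), Alas2 (7.95) and the red cell list (2.84), and highest for the interleukin 6 list (3.60). Replicate 7 was lowest for Krt80 (0) and highest for Gm29216 (13511), 1 of the 7 pseudogenes on chromosome 1. The single values left are Gm23935, lowest in replicate 8 (0), and 2 lists at their highest: keratinocyte in replicate 6 (2.35) and citrate cycle in replicate 3 (8.70).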

How the results depend on the processing

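No result changed direction past the threshold under any alternative run. Genes changed, higher and lower numbered 155, 147 and 8. They were 84 and 76 changed and higher with a mean of at least 5 CPM, 73 and 66 for a change of at least 1.5 times, and 62 and 50 with limma voom. They were 275, 257 and 18 with DESeq2, 102, 84 and 18 without lane 2, 44, 43 and 1 with a term for each lane, and 63, 63 and 0 without libraries of unusual read assignment (week 3 replicates 1 and 3 and week 1 replicate 7). Only the groups compared gave 3, 3 and 0, lanes 2 and 4 with a lane term 4, 4 and 0, and lane 4 alone 1, 1 and 0. Of the 147 higher genes, 40 were called higher again with limma voom, 75 without lane 2 and 0 in lane 4 alone. Without lane 2 and week 3 replicate 1, chosen after seeing the data, 51 changed and 43 were higher. With 1 library left out the ranges were 76 to 473 changed, 68 to 352 higher and 3 to 121 lower. Red cell genes called (12) were 10 to 12 with 1 library left out, 5 with voom, 0 in the groups compared alone, 1 in lanes 2 and 4 and 0 in lane 4. Neutrophil genes called (11) were 7 to 15 with 1 library left out, 2 with the CPM minimum, 7 without lane 2, 5 with a term for each lane, 2 with voom, 5 without lane 2 and week 3 replicate 1, and 0 in the 3 smaller sets. Z-disc genes called (6) were 1 to 7 with 1 library left out, 2 at 1.5 times, 3 with voom, 1 without libraries of unusual read assignment or without lane 2 and week 3 replicate 1, 1 in the groups compared alone, and 0 in lanes 2 and 4 or lane 4. The cause of these shifts was not tested, apart from the fewer genes or samples that some alternatives hold by construction. The median log2 fold change of all genes was 0.01 with RLE and 0.00 with upper quartile scaling. No paired analysis was possible because the replicate numbers used here were given in accession order, so numbers that both weeks share only name samples. Low depth limits the 32 higher genes with a mean under 1 CPM, whose levels rest on few reads.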

Other observations

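None of the 16 genes of the endothelial list was called by edgeR, DESeq2 or limma voom. An unadjusted edgeR p under 0.05 was reached by 3 of them, beside 1943 of all 14689 genes tested. Other genes of vessel walls were called, and they were picked here after their values were seen. Ecscr, an endothelial surface protein, was at 4.70 to 7.17 CPM in week 1 and at 6.53 to 13.7 CPM in week 3, and rose by 0.80 ± 0.16 (edgeR adjusted p = 0.00368). Gja5, a gap junction protein of arterial endothelium, rose by 0.78 ± 0.18 (edgeR adjusted p = 0.02), and Plvap, of fenestrated capillaries, by 0.57 ± 0.14 (edgeR adjusted p = 0.0262). Esm1 rose by 1.60 ± 0.37 (edgeR adjusted p = 0.0154) and the scavenger receptor Stab2 by 0.76 ± 0.20 (edgeR adjusted p = 0.0436). Of 15 leave-one-out fits, Ecscr passed in 15, Gja5 in 10, Plvap in 8, Esm1 in 13 and Stab2 in 7.

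Egln3, Slc7a5 and Apod were also chosen after their values were seen. Egln3, a prolyl hydroxylase induced by low oxygen, was at 24.2 to 34.2 CPM in week 1 and at 25.7 to 290.2 CPM in week 3, highest in replicate 1, and rose by 1.66 ± 0.38 (edgeR adjusted p = 0.0167). The amino acid transporter Slc7a5 rose by 1.64 ± 0.42 (edgeR adjusted p = 0.0428). Apod, a lipid carrier, was at 27.0 to 48.5 CPM in week 1 and at 127, 31.4, 36.1, 120.1, 136, 94.3 and 34.5 CPM in week 3 replicates 1, 3, 4, 5, 6, 7 and 8, and rose by 1.16 ± 0.27 (edgeR adjusted p = 0.018). Replicates 1, 5, 6 and 7 were again the high libraries. Genes with high scatter that missed the threshold were Mt1 (2.92 ± 0.87) and Mt2 (3.53 ± 1.06), metallothioneins, with edgeR adjusted p of 0.0968 and 0.101 and levels of 369 and 353 CPM in replicate 1.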
